A study of Homo sapiens with 28 samples.

Results

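The genes described here encode the translation initiation factors and the proteins that act on them. They were taken as the genes whose symbol begins with EIF1, EIF2, EIF3, EIF4, EIF5 or EIF6, without EIF4A3, pseudogenes and antisense names. This gave 52 of the 16482 genes in the table of all reads and 49 of the 13029 genes in the table of T>C reads, which are reads with T-to-C conversions that mark RNA made while 4-thiouridine (4sU) was present. The 52 are 4 genes of the eIF1 family, 6 of eIF2 and its start codon partners, 5 of eIF2B, 4 eIF2 alpha kinases, 13 of eIF3, 11 of eIF4F and its helpers, 3 eIF4E-binding proteins and 6 of the eIF5 and eIF6 family.

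RNA came from MDA-MB-453, a human breast cancer line of luminal type. Cells were kept for 3 h in DMSO, in JQ1 or IBET151, which block the bromodomains of BET proteins, or in JQ1-VHL or IBET151-VHL, which couple each inhibitor to a group that binds the VHL ubiquitin ligase, so that BET proteins are degraded. All cells, DMSO controls included, had 0.1 mM 4sU for the last 60 min and 10% Drosophila S2 cells mixed in before lysis with digitonin into a nuclear and a cytoplasmic fraction. Each treatment had 3 libraries per fraction, except IBET151 with 2, which makes 28 libraries in 10 groups, and the libraries read the 3′ ends of polyadenylated RNA. All groups are of 1 cell line, the doses are not in the labels, and the labels do not say what a replicate number stands for, so p-values measure the spread between these samples, which may be technical. No library without 4sU was analysed here, which leaves the level of T-to-C conversion in unlabelled RNA unmeasured.

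Translation of most mRNAs starts when eIF4E binds the 5′ cap and eIF4G links it to the helicase eIF4A and, through eIF3, to the small ribosomal subunit. That subunit carries eIF1, eIF1A and the initiator tRNA bound by eIF2, and eIF5 makes eIF2 spend its GTP when a start codon is met. eIF2B reloads eIF2 with GTP, and the eIF2 alpha kinases block this step under stress, while the eIF4E-binding proteins keep eIF4E from eIF4G.

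Promoters are shown for EIF5 and EIF4ENIF1, the members that passed with both VHL compounds in all cytoplasmic reads, and for the helicase paralogs EIF4A1 and EIF4A2, which differed in their share of T>C reads. The sequences are from RefSeq (GRCh38.p14) and run from 150 bases before the transcript start to 30 after it. They lie at chr14:103334087-103334266 on the plus strand, chr22:31489813-31489992 on the minus strand, chr17:7572675-7572854 on the plus strand and chr3:186783427-186783606 on the plus strand. Capitals mark 3 promoter motifs on either strand: the CCAAT box, the GC box (GGGCGG) and the TATA box (TATAAA).
EIF5: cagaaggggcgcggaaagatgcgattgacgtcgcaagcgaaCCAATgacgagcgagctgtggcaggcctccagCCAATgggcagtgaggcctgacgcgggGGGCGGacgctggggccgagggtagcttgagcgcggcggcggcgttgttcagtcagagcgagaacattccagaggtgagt
EIF4ENIF1: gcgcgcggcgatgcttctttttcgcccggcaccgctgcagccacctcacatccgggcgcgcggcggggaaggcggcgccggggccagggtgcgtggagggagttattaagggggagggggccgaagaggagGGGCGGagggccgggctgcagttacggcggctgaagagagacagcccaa
EIF4A1: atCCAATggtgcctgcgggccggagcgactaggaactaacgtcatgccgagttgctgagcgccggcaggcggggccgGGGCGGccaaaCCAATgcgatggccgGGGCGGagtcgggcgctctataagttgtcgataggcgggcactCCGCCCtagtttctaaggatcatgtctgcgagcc
EIF4A2: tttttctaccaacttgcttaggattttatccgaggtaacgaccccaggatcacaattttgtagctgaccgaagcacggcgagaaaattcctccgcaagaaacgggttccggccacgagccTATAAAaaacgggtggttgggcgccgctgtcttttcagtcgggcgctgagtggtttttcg
The EIF5 promoter held CCAAT 109 and 77 bases before the start, and the EIF4A1 promoter held it 148 and 62 bases before. Of these 4 promoters, TATAAA stood in that of EIF4A2 only, 30 bases before the start. Among the 44 members with an entry, GGGCGG stood in 59.1% of promoters, CCAAT in 34.1% and TATAAA in 2.27%, against 38.7%, 25.4% and 7.28% of 35116 promoters of the same length. The E-box CACGTG, bound by MYC among others, was in 13.6% of the members' promoters and in 5.19% of all promoters, and the ETS motif CCGGAAG in 22.7% and 8.32%. TGACGTCA was in 0% and 1.6%. A single promoter was taken per member, while the 35116 are all entries, whether or not the gene was expressed here, so the sets are unlike. A match of letters is a description and shows no binding.

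Values below are the deposited levels, which the authors scaled to ERCC RNA added per mass of extracted RNA. They compare equal masses of RNA, not equal numbers of cells, and in bulk RNA fewer cells with a transcript and less of it per cell cannot be told apart. Libraries held 30647584 to 68475299 reads in the cytoplasm and 17851589 to 38658448 in the nucleus, of which 82264 to 379401 and 214725 to 1928012 were T>C reads. 1 read was worth 0.374 to 0.951 units in the cytoplasm and 0.670 to 2.24 in the nucleus. MYC, a gene that depends on BET proteins, had a cytoplasmic mean of 171 ± 88.3 (SD, n = 3) in DMSO and 7.18 ± 3.22 and 10.0 ± 2.90 with JQ1-VHL and IBET151-VHL. All 9 luminal markers checked were present. Of the stromal and immune markers with a value, COL1A1 had a cytoplasmic DMSO mean of 1619.9 and CD68 of 31.3, the endothelial marker CDH5 was listed at 0 in these libraries and the others were at most 3.64. 3 sets of libraries stood apart. DMSO replicate 1 of the cytoplasm was under 0.6 times the mean of the other DMSO libraries for 11 of 46 members (23.9%) and for 13.2% of 9390 genes. Nuclear libraries of replicate 1 were low in level in the groups of 3, and those of replicate 3 held a median of 3.76 to 5.002 times their members' level. Over all genes the values of replicates 1, 2 and 3 summed to 2.23e+07, 4.85e+07 and 6.79e+07 in DMSO and 1.58e+07, 3.85e+07 and 6.20e+07 with JQ1. They summed to 1.48e+07, 4.49e+07 and 4.97e+07 with JQ1-VHL and 1.39e+07, 3.98e+07 and 4.38e+07 with IBET151-VHL. In the nucleus the T>C share of all reads was 8.02%, 6.34% and 2.25% in the 3 DMSO libraries and 6.67%, 5.69% and 1.94% in those of JQ1, so replicate 3 was low in both. In the labels these replicate 3 libraries stand in a run of library numbers of their own, apart from replicate 3 of the VHL compounds. Some results are also given with a single library of these left out. The sets of nuclear libraries were not left out together. By the library numbers, IBET151 has no library in the run that holds replicate 1 of the other groups. Its libraries stand in later runs than same-numbered libraries of those groups.

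In all cytoplasmic reads few initiation factor genes passed the test after 3 h. EIF5, which makes eIF2 use its GTP, and EIF4ENIF1, the eIF4E carrier 4E-T, both fell with JQ1-VHL and with IBET151-VHL. EIF2AK2, the kinase PKR, fell with IBET151-VHL from a low level, at which the filter favoured a fall. With JQ1 and with IBET151, 0 of 49 tested members passed limma's threshold of an adjusted p under 0.05, and 1 and 4 had an unadjusted p under 0.05. With JQ1-VHL 2 of 49 fell and with IBET151-VHL 3 of 49 fell, while 12.5% and 15.4% of all genes tested did, so the members' shares lay under the background. Of all genes 4.0% fell and 0.818% rose with JQ1, 1.62% fell and 0.898% rose with IBET151, and 0.417% and 0.465% rose with JQ1-VHL and IBET151-VHL. The members' median log2 change was -0.03 with JQ1, 0.14 with IBET151, -0.04 with JQ1-VHL and 0.02 with IBET151-VHL, where the medians of all genes were -0.13, 0.00, -0.17 and -0.15. The 4 comparisons share their DMSO libraries. EIF3CL, EIF4E1B and EIF5A2 were too low to test.

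EIF5 had cytoplasmic values of 6001, 9001 and 7187 in DMSO, 8185, 6749.9 and 6657 with JQ1 and 7257 and 8613 with IBET151. It had 4223, 4703 and 5515 with JQ1-VHL and 4059.5, 4337 and 4707 with IBET151-VHL. All 6 libraries of the VHL compounds lay below all 8 others. The log2 change was -0.61 (SE 0.17, adjusted p = 0.0248) with JQ1-VHL and -0.74 (SE 0.17, adjusted p = 0.00559) with IBET151-VHL, against -0.03 and 0.12 with JQ1 and IBET151. The JQ1-VHL call was lost with median-ratio scaling (-0.38, adjusted p = 0.080) and without DMSO replicate 2 (-0.46, adjusted p = 0.094), JQ1-VHL replicate 1 (-0.52, adjusted p = 0.132) or JQ1-VHL replicate 2 (-0.60, adjusted p = 0.0729). The IBET151-VHL call was kept in each alternative run.

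EIF4ENIF1 had cytoplasmic values of 689.9, 1085 and 745 in DMSO, 641, 522 and 387 with JQ1 and 509 and 550.3 with IBET151. It had 423, 531 and 452 with JQ1-VHL and 418, 360.5 and 371 with IBET151-VHL. Every drug library lay below every DMSO library. The JQ1-VHL libraries overlapped with those of JQ1, and the IBET151-VHL libraries lay below those of IBET151. The log2 change was -0.82 (SE 0.21, adjusted p = 0.0199) with JQ1-VHL and -1.10 (SE 0.21, adjusted p = 0.002) with IBET151-VHL. It was -0.70 (adjusted p = 0.082) with JQ1 and -0.64 (adjusted p = 0.247) with IBET151. With the replicate number as a block the JQ1 value passed too (adjusted p = 0.0463). With median-ratio scaling, which centres genes in place of the spike-in, both parents passed, at -0.55 (adjusted p = 0.0322) with JQ1 and -0.63 (adjusted p = 0.0314) with IBET151. The JQ1-VHL call was lost without DMSO replicate 2 (-0.62, adjusted p = 0.0802), JQ1-VHL replicate 1 (-0.75, adjusted p = 0.0963) or JQ1-VHL replicate 3 (-0.80, adjusted p = 0.0704), and the IBET151-VHL call was kept in each alternative run.

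Of the eIF2 alpha kinases, which switch off eIF2, EIF2AK2 was the lowest in level and the only one to pass. EIF2AK2 had 14.5, 35.5 and 22.2 units in DMSO and 9.42, 0 and 2.39 with IBET151-VHL, in cytoplasmic reads, with no overlap. The IBET151-VHL values all lay under the filter minimum of 10 units. EIF2AK2 thus entered the test through other groups, and the filter favoured a fall. Its log2 change was -2.85 (SE 0.69, adjusted p = 0.00967). It was -1.78 with a pseudocount of 5, and without DMSO replicate 2 it did not pass (-2.53, adjusted p = 0.0532). EIF2AK1, the heme-regulated kinase, had 5727, 7532 and 5968 in DMSO and 6594, 6657 and 6431 with IBET151-VHL. EIF2AK3, the kinase PERK of the endoplasmic reticulum, had 163, 235 and 174 and 176, 135 and 159.9, and EIF2AK4, the amino acid sensor GCN2, had 3144, 2897 and 1910.2 and 2930.3, 2636 and 2206. These 3 did not pass with either VHL compound.

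EIF1AD, whose product contains an eIF1A-like domain, gave a result that rests on 1 library. Its cytoplasmic values were 667, 1879 and 1501 in DMSO, 1647, 1314 and 1570.4 with JQ1, 817, 879.7 and 1059 with JQ1-VHL and 663, 673 and 819 with IBET151-VHL. DMSO replicate 1 lay among the VHL libraries and the other DMSO libraries above them. With all libraries the log2 change was -0.43 (adjusted p = 0.442) with JQ1-VHL and -0.79 (adjusted p = 0.0844) with IBET151-VHL, and with the replicate block the latter passed (adjusted p = 0.0453). Without DMSO replicate 1 it fell by 0.88 (adjusted p = 0.00697) and by 1.23 (adjusted p = 0.000447).

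The core of the scanning complex and of the cap complex did not pass in either direction in these reads. Of the 12 eIF3 subunits tested none passed, and their log2 changes ran from -0.19 to 0.30 with JQ1-VHL and from -0.25 to 0.29 with IBET151-VHL. The 10 genes of eIF4F and its helpers ran from -0.25 to 0.50 and from -0.21 to 0.45. The helicase EIF4A1 had 11964, 11814 and 8319.7 in DMSO and 12001, 9510.1 and 9271 with IBET151-VHL, and EIF4A2 had 2449, 4668 and 4033 and 3461, 3539 and 4965. The groups overlapped for both. The 5 eIF2B genes ran from -0.56 to 0.03 with IBET151-VHL and the 6 of eIF2 and its partners from -0.25 to 0.46. EIF1, which guards start codon choice, had 15969, 21778 and 15193 in DMSO, 23442, 22708 and 18056 with JQ1 and 19890.2, 20268 and 19289 with IBET151-VHL. Without DMSO replicate 2 of the cytoplasm the counts changed to 7 that rose with IBET151, EIF1 among them (0.65, adjusted p = 0.0250). They changed to 2 that rose and 0 that fell with JQ1-VHL (EIF5AL1 and EIF3E), and to 4 that rose and 2 that fell with IBET151-VHL. The shares of all genes without that library are not given here, so these counts are no result about the members. Median-ratio scaling also turned the balance: 4 rose and 1 fell with JQ1-VHL (1.93% of all genes rose and 9.37% fell), and 8 rose and 3 fell with IBET151-VHL (3.98% and 12.9%). EIF1 passed as higher with all 4 drugs in that scaling, from 0.34 with JQ1-VHL to 0.49 with IBET151.

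**Figure D1:**
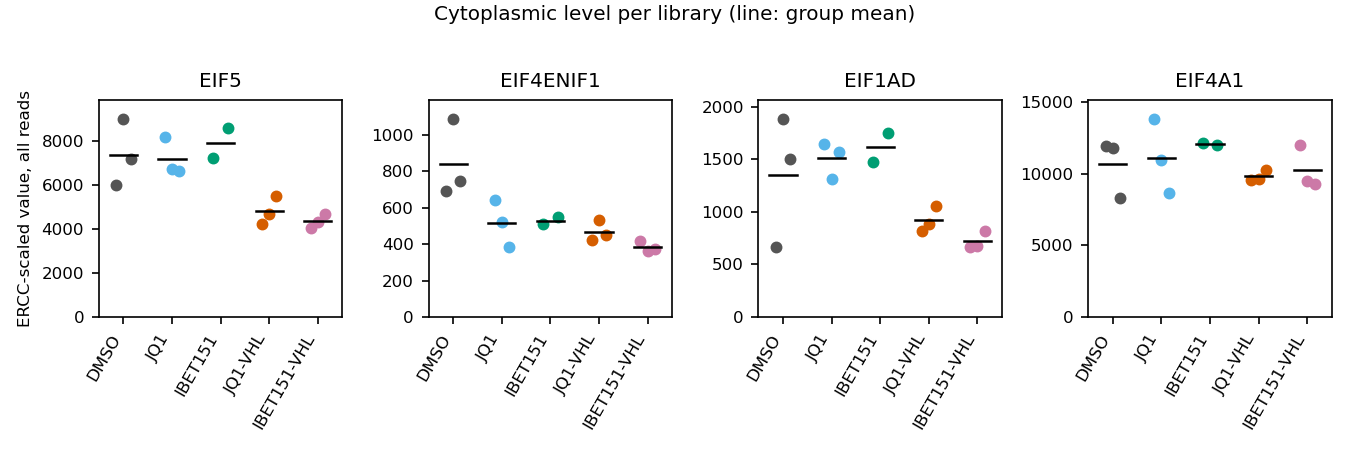
Deposited level in all cytoplasmic reads (linear axes from 0, ERCC-scaled units) of EIF5, EIF4ENIF1, EIF1AD and EIF4A1, with 1 point per library and a line at the group mean, by treatment. All points of the VHL compounds lie below all DMSO points for EIF5 and EIF4ENIF1, while EIF1AD has 1 low DMSO point and EIF4A1 overlaps.

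**Figure D2:**
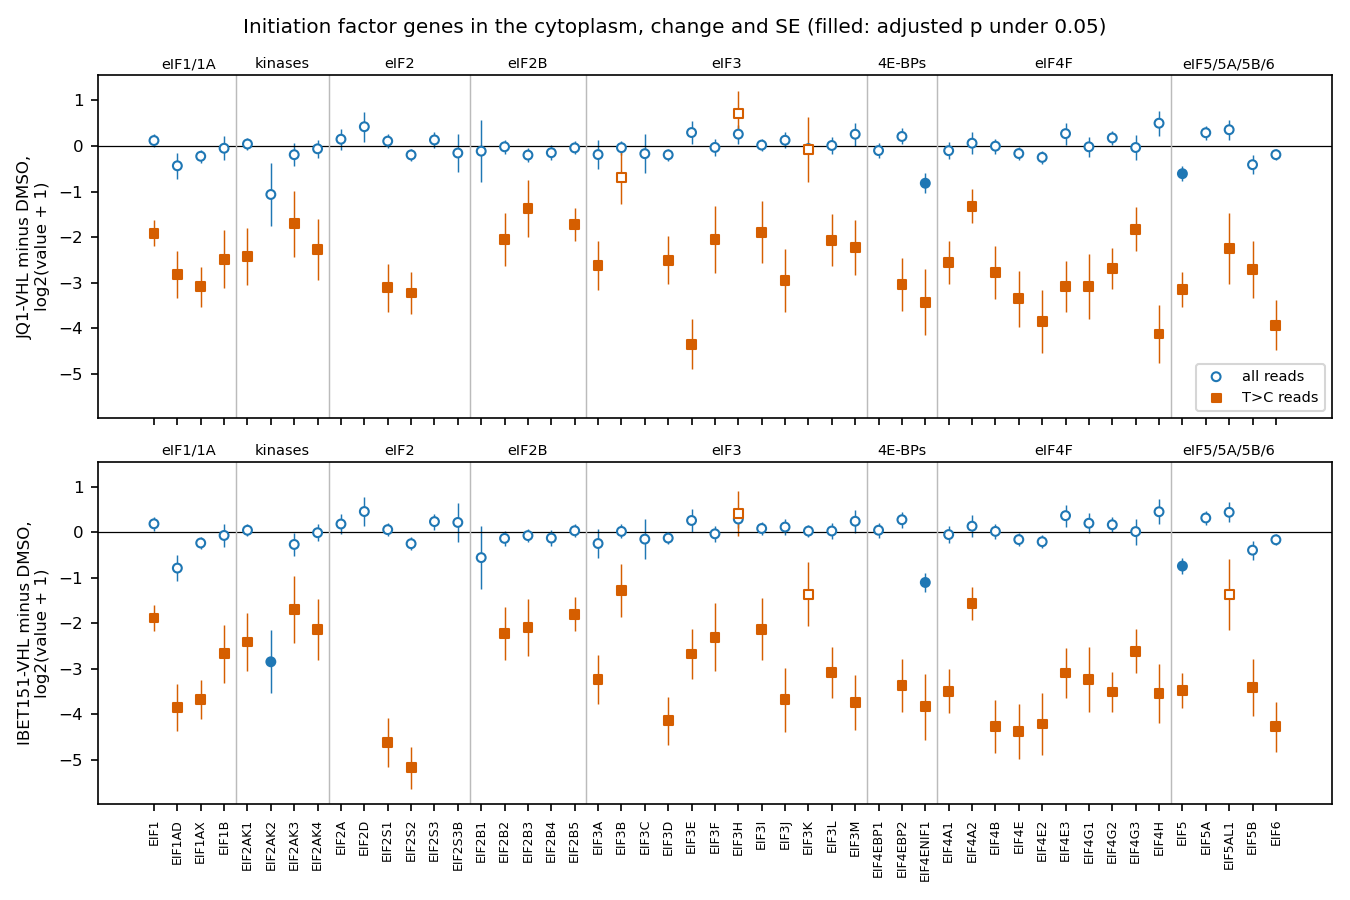
log2 change against DMSO in the cytoplasm with JQ1-VHL (upper panel) and IBET151-VHL (lower panel) for each tested initiation factor gene by role, with its SE as a vertical line; circles are all reads, squares are T>C reads and filled symbols have an adjusted p under 0.05. Most circles lie near 0, while the squares lie around medians of -2.57 and -3.24, apart from those of EIF3H above 0.

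In all nuclear reads few members passed, and replicates of a group differed several-fold. With JQ1, IBET151 and JQ1-VHL 0 of 49 passed, and with IBET151-VHL 1 of 49 fell, EIF2AK2. Of all genes 0.0486%, 0.00694%, 1.07% and 3.66% fell and 0.0208%, 0.0902%, 0.902% and 0.888% rose. In limma 0, 0, 2 and 4 members had an unadjusted p under 0.05. The members' median log2 change was -0.35 with JQ1, 0.14 with IBET151, -0.40 with JQ1-VHL and -0.60 with IBET151-VHL, beside -0.43, 0.05, -0.48 and -0.71 over all genes. For IBET151, libraries of later runs are set against DMSO libraries that include the first run, so drug and run cannot be fully told apart. EIF2AK2 had 179.9, 191 and 146 units in DMSO and 23.3, 24.2 and 64.9 with IBET151-VHL, with no overlap, a log2 change of -2.33 (SE 0.66, adjusted p = 0.0216). The call was lost when DMSO replicate 2 was left out (-2.25, adjusted p = 0.121) or 3 (-2.44, adjusted p = 0.0655), or IBET151-VHL replicate 1 (-2.08, adjusted p = 0.127) or 2 (-2.10, adjusted p = 0.0899).

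Same-numbered libraries deviated together in these reads, and pairing them raised the counts. With the replicate number as a block 3 members fell with JQ1 (9.54% of all genes fell), 9 with JQ1-VHL (23.4%) and 21 with IBET151-VHL (43.7%). The shares of 49 that these make do not exceed the background, and that with IBET151-VHL lies close to it. Compared by number, 32 of 49 members were lower than DMSO in all 3 pairs with JQ1, 35 with JQ1-VHL and 44 with IBET151-VHL, beside 63.7%, 57.8% and 72.0% of all genes. EIF4ENIF1 had nuclear values of 1342, 2436 and 2635 in DMSO, 570.1, 1299 and 1786 with JQ1, 397, 1322 and 1297 with JQ1-VHL and 290.3, 711 and 1093 with IBET151-VHL. It was lower in each pair, and its log2 change with the block was -0.90 (adjusted p = 0.0417), -1.22 (adjusted p = 0.00115) and -1.75 (adjusted p = 4.76e-07). Without the block the last was -1.75 (adjusted p = 0.17), and with median-ratio scaling and no block EIF4ENIF1 passed with JQ1-VHL (-0.68, adjusted p = 0.0153) and IBET151-VHL (-0.97, adjusted p = 0.00103). EIF5 had 4571, 10276 and 17105 in DMSO and 2556, 7335 and 8688 with IBET151-VHL, and with the block it fell by 0.77 on the log2 scale. Others that fell with IBET151-VHL with the block included EIF1AD (-1.65), EIF2B1 (-1.91) and EIF2AK3 (-1.12). None of the 12 eIF3 subunits other than EIF3M (-0.89) was among the 21.

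In DMSO cells the members split by where their polyadenylated RNA lay, compared at equal RNA mass. 7 of 49 were higher in the nucleus, in which 47.9% of all genes were, and 1 was lower, as were 0.539% of all genes. The members' median log2 difference, nucleus minus cytoplasm, was 0.35, beside 1.26 for all genes, and 42 of 49 lay below the median of all genes. Median-ratio scaling lowered the members' median to -0.79, with 5 higher and 33 lower, and in it 28.7% of all genes were higher and 26.1% lower.

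Some paralogs had unlike values in this comparison. The scaffold EIF4G1 had 24825, 43429 and 53694 in the nucleus and 9247, 9363 and 6169 in the cytoplasm, a log2 difference of 2.25 (SE 0.56, adjusted p = 9.83e-04). EIF4G3, its near relative, had 6724, 6009 and 6107 and 1537, 1651 and 913, a difference of 2.24 (SE 0.51, adjusted p = 3.31e-04). EIF4G2, a relative that does not bind eIF4E, had 9320.0, 25964 and 35312 and 19177, 26209.9 and 17691, a difference of -0.02 (adjusted p = 0.983). All nuclear libraries of EIF4G1 and EIF4G3 lay above all cytoplasmic ones, and those of EIF4G2 overlapped; the difference between paralogs was not tested. Among the kinases, EIF2AK3 had 1285, 1992 and 2572 in the nucleus and 163, 235 and 174 in the cytoplasm (3.31, SE 0.50, adjusted p = 7.68e-07), and EIF2AK2 differed by 2.87 (SE 0.62, adjusted p = 1.92e-04). EIF2AK1 differed by 0.10 and EIF2AK4 by 1.13, and neither passed.

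EIF2B1, the alpha subunit of eIF2B, had 157, 169.8 and 53.6 units in the nucleus and 12.9, 5.07 and 2.59 in the cytoplasm (4.08, SE 0.64, adjusted p = 1.38e-06). EIF4ENIF1 (1.32, SE 0.52, adjusted p = 0.0323) and EIF2B3 (1.23, SE 0.52, adjusted p = 0.0448) were higher in the nucleus by less. With median-ratio scaling their differences were 0.18 and 0.09, and neither passed. EIF4ENIF1 did not pass without cytoplasmic DMSO replicate 1 (1.19, adjusted p = 0.103) or 3 (1.24, adjusted p = 0.0938), or without nuclear replicate 2 (1.19, adjusted p = 0.108) or 3 (1.13, adjusted p = 0.116). EIF2B3 did not pass without any 1 of the 3 cytoplasmic libraries or nuclear replicate 2 or 3 (1.03 to 1.29), nor with the replicate block (adjusted p = 0.0617). EIF4EBP1, the best known of the eIF4E-binding proteins, was the member that was lower, with 309, 1107 and 2434 in the nucleus and 2099, 3239 and 2359 in the cytoplasm. Its fractions overlapped, its difference was -1.42 (SE 0.60, adjusted p = 0.0472), and it was -0.62 without nuclear DMSO replicate 1. It passed only without nuclear replicate 3 among the 6 libraries left out in turn, and did not pass with edgeR (-1.001, adjusted p = 0.131). With median-ratio scaling, which lowered the median of all members too, EIF4EBP1 passed at -2.56 (SE 0.292, adjusted p = 1.48e-07).

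**Figure D3:**
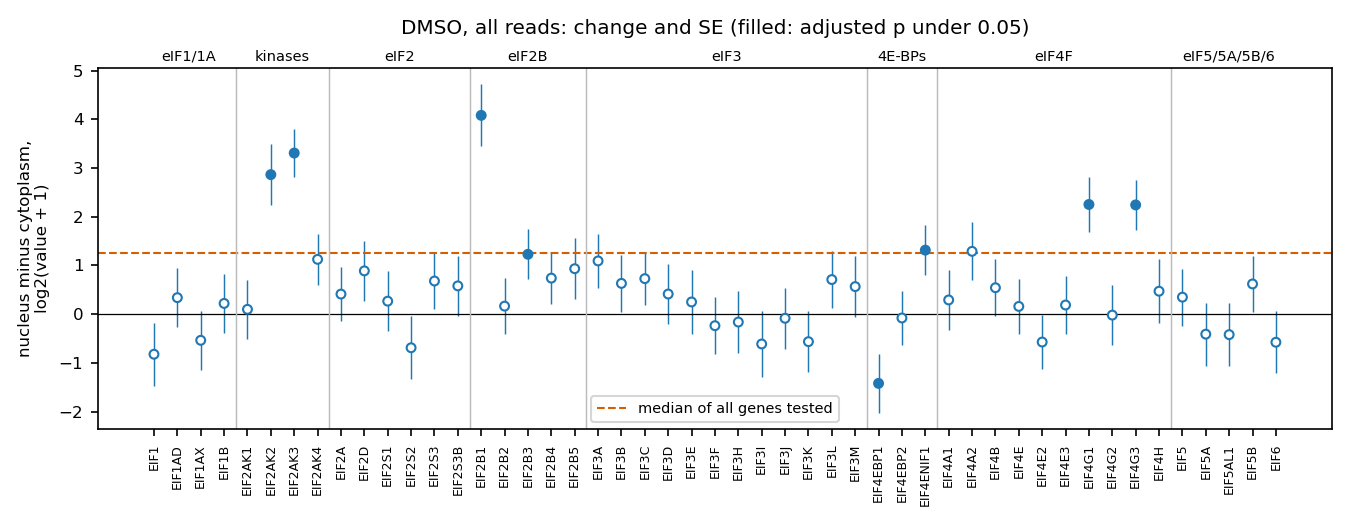
log2 difference between nucleus and cytoplasm in DMSO libraries, all reads, for the 49 tested initiation factor genes by role, with the SE as a vertical line, filled points for an adjusted p under 0.05 and a dashed line at the median of all genes tested (1.26). EIF2B1 and EIF2AK3 lie highest, and EIF4EBP1 lies lowest at -1.42.

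In T>C reads of the cytoplasm nearly all measurable initiation factor genes fell with the VHL compounds, with the deposited scaling. 36 of 39 tested members fell with JQ1-VHL and 36 of 39 with IBET151-VHL, and so did 82.8% and 88.3% of all genes tested, while 0.19% and 0.159% rose. The members' median log2 change was -2.57 with JQ1-VHL and -3.24 with IBET151-VHL, beside -2.42 and -2.89 over all genes, and 23 and 22 of 39 lay below the median of all genes. Median-ratio scaling moved the medians of all genes to -0.88 and -1.26, and relative to it 1 member rose and 6 fell with JQ1-VHL (2.62% of all genes rose and 18.8% fell) and 4 rose and 10 fell with IBET151-VHL (5.4% and 36.7%). With JQ1 4 of 39 fell (20.1% of all genes fell and 0.492% rose), at a median of -0.77, and with IBET151 2 of 39 (6.76% and 0.524%), at a median of -0.49. 10 members were too low to test, and of the 39 tested only 16 had 2 libraries of a VHL compound at the minimum of 5 units, so the others could pass mainly by falling. 6 of the 39 (EIF2AK4, EIF3F, EIF3K, EIF4E2, EIF4E3 and EIF5AL1) had fewer than 2 drug libraries at that minimum and entered through DMSO.

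By role, all 4 tested genes of the eIF1 family, all 3 tested kinases, both tested eIF2 subunits, all 3 tested eIF2B subunits, all 10 tested genes of eIF4F and helpers and both tested eIF4E-binding proteins fell with both VHL compounds under the deposited scaling. Of eIF3 8 and 9 of 11 fell, and of the eIF5 and eIF6 family 4 and 3 of 4. Of all genes tested 5214 of 6300 fell with JQ1-VHL and 5561 with IBET151-VHL. Among the 39 tested members 23 had fewer than 2 VHL libraries at the minimum of 5 units, so they could pass mainly by falling. Of the members that fell, EIF2AK4, EIF3F, EIF4E2, EIF4E3 and EIF5AL1 entered through DMSO, so that the filter set their direction. Of those that fell, median-ratio scaling put EIF1, EIF2B5, EIF4A2 and EIF4G3 above 0 with both compounds, EIF2B3 with JQ1-VHL, and EIF2AK3, EIF2B2, EIF3B and EIF3I with IBET151-VHL. EIF2S2, the beta subunit of eIF2, fell furthest of the members with IBET151-VHL. Its T>C values were 107, 159 and 74.5 in DMSO, 41.7, 50.8 and 29.9 with JQ1, 7.38, 13.6 and 11.9 with JQ1-VHL and 3.36, 0.864 and 2.39 with IBET151-VHL. The ranges of DMSO, JQ1 and each VHL compound did not overlap, and the log2 change was -3.23 (SE 0.46, adjusted p = 1.37e-06) and -5.18 (SE 0.46, adjusted p = 2.07e-10). EIF2S1, the alpha subunit that the kinases modify, changed by -3.12 and -4.62.

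EIF5 had T>C values of 101, 155 and 117 in DMSO, 75.8, 81 and 58.7 with JQ1, 91.3 and 90.2 with IBET151, 9.39, 14.5 and 15.6 with JQ1-VHL and 7.4, 12.1 and 11.3 with IBET151-VHL. The VHL libraries lay far below all others, with log2 changes of -3.15 (SE 0.39, adjusted p = 2.25e-07) and -3.48 (SE 0.39, adjusted p = 1.18e-08). EIF1 fell less. It had 253, 298 and 289.7 in DMSO, 393 and 400.0 with IBET151, 55, 89.7 and 79.5 with JQ1-VHL and 67.3, 82.1 and 76.4 with IBET151-VHL. Its log2 changes were -1.92 and -1.88, which median-ratio scaling turned to 0.29 and 1.09. EIF1B, its paralog, fell by 2.49 and 2.67, and EIF1AD by 2.82 and 3.85.

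The paralogs of eIF4A, the helicase that opens the 5′ end, fell to different degrees. EIF4A1 had T>C values of 118, 119.9 and 53.3 in DMSO, 10.1, 29 and 10.4 with JQ1-VHL and 11.4, 8.64 and 3.58 with IBET151-VHL. EIF4A2 had 74.9, 104 and 77.6, 27.5, 39 and 34.2 and 18.8, 36.3 and 31.6. No VHL library reached the lowest DMSO library of either gene. The log2 changes were -2.56 (SE 0.48, adjusted p = 3.57e-05) and -3.49 (SE 0.48, adjusted p = 2.79e-07) for EIF4A1, and -1.32 (SE 0.37, adjusted p = 0.00203) and -1.57 (SE 0.37, adjusted p = 3.32e-04) for EIF4A2. The difference between the paralogs was not tested, and median-ratio scaling turned EIF4A2 to 0.86 and 1.37. Of the scaffolds, EIF4G1 changed by -3.09 and -3.24, EIF4G2 by -2.69 and -3.51, and EIF4G3 by -1.83 and -2.62, which median-ratio scaling turned to 0.26 and 0.14. The cap binder EIF4E changed by -3.36 and -4.38.

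EIF3H, an outer subunit of eIF3, did not pass with either compound. Its cytoplasmic T>C values were 15.3, 136 and 94.7 in DMSO, 97.1, 61.1 and 113 with JQ1, 118 and 93.8 with IBET151, 71.1, 92.4 and 137 with JQ1-VHL and 47.8, 94.2 and 107 with IBET151-VHL. DMSO replicate 1 was the lowest library of all, and the other libraries of every group overlapped. The log2 change was 0.71 (SE 0.51, adjusted p = 0.191) with JQ1-VHL and 0.41 (SE 0.51, adjusted p = 0.436) with IBET151-VHL. With median-ratio scaling it rose by 2.87 (adjusted p = 0.000929) and 3.35 (adjusted p = 8.82e-05). T>C reads made up 0.283, 1.18 and 1.19% of its reads in DMSO and 0.485, 0.932 and 1.18% with IBET151-VHL. The others that did not pass with a VHL compound were EIF3B with JQ1-VHL (-0.69), EIF3K with both (-0.08 and -1.36) and EIF5AL1 with IBET151-VHL (-1.37), whose reads are hard to tell from those of the near-identical EIF5A.

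The members that fell in cytoplasmic T>C reads with JQ1 were EIF4E2, a relative of the cap binder EIF4E (-2.92), EIF3E (-1.78, SE 0.55, adjusted p = 0.0249), EIF5B, which joins the ribosomal subunits (-1.95, SE 0.62, adjusted p = 0.0262), and EIF2S2 (-1.42, SE 0.46, adjusted p = 0.0295). All 4 lost the call with median-ratio scaling. EIF4E2 entered the test through its DMSO libraries, so that it could pass only by falling, and its value is a description. The count was 1 without DMSO replicate 1 or 2 or JQ1 replicate 3, and 2 without JQ1 replicate 1. EIF4E2 had 33.8, 13.5 and 19.1 in DMSO, 0, 3.97 and 3.74 with JQ1 and 6.66 and 0.911 with IBET151, with no overlap. EIF4E3, another cap binder, had 8.05, 9.29 and 5.69 in DMSO and 5.96, 2.38 and 4.49 with JQ1, and 0 in all 8 libraries of IBET151 and the VHL compounds. 0 T>C reads among the 3687, 6160 and 7237 EIF4E3 reads of IBET151, JQ1-VHL and IBET151-VHL allow a share of up to 0.0814%, 0.0487% and 0.0415%, for counting error only. In DMSO the shares were 0.986, 0.492 and 0.406%. EIF4E3 and EIF4E2 were the 2 members counted with IBET151. Both entered through DMSO, so that the filter set the direction and neither count supports a fall. The count was 0 with edgeR, with DESeq2 and with median-ratio scaling, and 1 without any 1 of the DMSO libraries or IBET151 replicate 2.

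In T>C reads of the nucleus the members fell with both VHL compounds, and more of them with IBET151-VHL. 44 of 49 fell with IBET151-VHL and 26 of 49 with JQ1-VHL, beside 83.9% and 60.5% of all genes tested, of which 1.09% and 1.28% rose. 1 of the 49, EIF2S3B, had fewer than 2 drug libraries at the minimum of 5 units. It entered through DMSO and could pass only by falling. 0 members passed with JQ1 or IBET151, where 2.29% and 0.987% of all genes fell and 0.124% and 0.315% rose. In limma 1 and 0 members had an unadjusted p under 0.05 with these. The members' median log2 change was -0.63 with JQ1, 0.00 with IBET151, -1.68 with JQ1-VHL and -2.54 with IBET151-VHL, where the medians of all genes were -0.67, -0.07, -1.92 and -3.12. Median-ratio scaling moved the last 2 medians of all genes to -0.29 and -0.54 and turned the balance of members to 7 higher and 0 lower with JQ1-VHL (6.02% of all genes higher and 8.28% lower) and to 13 higher and 5 lower with IBET151-VHL (13.9% and 27.6%). All 49 members lay below 0 with both compounds in the deposited scaling, and 27 and 28 of them lay above 0 in this one. The JQ1-VHL count was 3 without DMSO replicate 2, 5 without JQ1-VHL replicate 1 and 28 without DMSO replicate 3, and the IBET151-VHL count was 33 without DMSO replicate 2, 36 without IBET151-VHL replicate 1 and 40 to 44 without any 1 of the other 4 libraries. Blocking by runs of library numbers, 47 of 49 fell with JQ1-VHL, as did 83.0% of all genes. With that block the median log2 change of all genes with IBET151 was -0.76, where it was -0.07 without. In DMSO itself all 49 members had more T>C reads per RNA mass in the nucleus than in the cytoplasm, as had 93.6% of all genes, at a median log2 difference of 3.40 beside 3.62, and with median-ratio scaling 7 were higher and 3 lower (17.9% and 2.21% of all genes).

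All 12 tested eIF3 subunits, all 6 genes of eIF2 and partners, all 4 kinases and all 5 tested genes of the eIF5 and eIF6 family fell with IBET151-VHL under the deposited scaling. Of the 6, EIF2S3B entered through DMSO, so that the filter set its direction. Median-ratio scaling put 23 of the 44 members that fell above 0, and 9 of these passed as higher there: EIF1AX, EIF2S1, EIF2S3, EIF3A, EIF3B, EIF3H, EIF3L, EIF4G2 and EIF5. With JQ1-VHL it put 5 of the 26 that fell above 0, and none of the 5 passed. EIF2AK4 fell furthest, with nuclear T>C values of 311, 386 and 176 in DMSO, 13.4, 60.6 and 42.2 with JQ1-VHL and 0.776, 5.19 and 13.4 with IBET151-VHL. All VHL libraries lay below all DMSO libraries, and the log2 change was -3.04 (SE 0.74, adjusted p = 4.01e-04) and -5.68 (SE 0.74, adjusted p = 1.19e-12). EIF2D, which can deliver tRNA without eIF2, had 179, 363 and 93.8, 8.04, 43.6 and 40 and 0.776, 15.6 and 2.24, a change of -2.85 and -5.33. Both stayed lower with median-ratio scaling with IBET151-VHL (-3.05 and -2.76). The 5 that did not pass with IBET151-VHL were EIF1 (-1.18, adjusted p = 0.0943), EIF4A1 (-1.15, adjusted p = 0.105), EIF4A2 (-1.11, adjusted p = 0.128), EIF4EBP2 (-1.06, adjusted p = 0.144) and EIF2B1 (-0.96, adjusted p = 0.304). All 5 lay above 0 with median-ratio scaling, and EIF1, EIF4A1, EIF4A2 and EIF4EBP2 passed as higher in it (1.82 to 1.91). EIF4A1 had 726, 1316 and 678 in DMSO and 189, 669.5 and 470.2 with IBET151-VHL, and EIF4A2 had 1314, 2781 and 1358 and 482, 1515 and 674. The groups overlapped for EIF4A2, and for EIF4A1 they did not.

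The T>C share, T>C value over value of all reads of a gene, needs no scaling between libraries and is given for the 46 members with a mean of at least 100 in a fraction. It is a description, with no test. In the cytoplasm the members' median share of group means was 0.545% in DMSO, 0.242% with JQ1, 0.258% with IBET151, 0.0723% with JQ1-VHL and 0.0357% with IBET151-VHL. All genes gave 0.648%, 0.300%, 0.349%, 0.0777% and 0.0276%. In each of the 3 pairs 41 to 44 of the members with a DMSO share above 0 were below their same-numbered DMSO library with a VHL compound, as were 93.4% to 97.1% of all genes.

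In the nucleus the median was 5.51% in DMSO, 4.50% with JQ1, 4.22% with IBET151, 2.06% with JQ1-VHL and 1.16% with IBET151-VHL, beside 6.98%, 5.80%, 5.67%, 2.14% and 0.994% over all genes. By library it was 8.65%, 6.05% and 1.81% in DMSO, 1.98%, 2.43% and 1.70% with JQ1-VHL and 2.28%, 1.04% and 0.663% with IBET151-VHL, so DMSO replicate 3 lay among the VHL libraries. All 46 members were below DMSO in pairs 1 and 2 with JQ1-VHL, at median ratios of 0.244 and 0.378, but 22 of 46 were in pair 3, at 1.01, where the shares of all genes below DMSO were 98.0%, 97.3% and 66.9%. With IBET151-VHL all 46 were below in each pair, at 0.255, 0.195 and 0.347, beside 98.3%, 98.4% and 92.7% of all genes. Libraries of JQ1-VHL lay below all 3 of DMSO for 11 of 46 members, beside 44.7% of all genes, and below DMSO replicates 1 and 2 for all 46, beside 92.2%. Those of IBET151-VHL did so for 23 and 46 members, beside 71.5% and 94.7% of all genes. What sets replicate 3 apart was not tested.

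Members differed widely in share. Between genes a share also depends on the T bases in their reads and on background conversion, which was not measured. The order of genes is therefore not a measure of newly made RNA alone. In the nucleus in DMSO it was 28.3% ± 11.7 (SD, n = 3) for EIF1AD, 22.6% ± 12.4 for EIF4A2 and 18.8% ± 11.2 for EIF5, and 1.89% ± 1.14 for EIF4G1 and 1.16% ± 0.415 for EIF5A, which carries hypusine and helps elongation. EIF1AD stood at percentile 99.1 of all genes in the nucleus and 98.8 in the cytoplasm, where its share was 8.97% ± 0.905. Of the eIF4A pair, EIF4A2 had nuclear shares of 28.9, 30.6 and 8.31% in DMSO, 17.6, 19.1 and 16.4% with JQ1-VHL and 18.2, 19.2 and 7.74% with IBET151-VHL. EIF4A1 had 12.9, 8.32 and 2.8%, 4.77, 4.76 and 4.25% and 5.13, 5.14 and 2.68%. In each of the 9 libraries EIF4A2 had the higher share. The scaffolds were ordered EIF4G3, EIF4G2 and EIF4G1 in DMSO, with nuclear shares of 16.9, 11.1 and 7.4%, 7.85, 7.3 and 2.06% and 2.34, 2.75 and 0.592%, the same order in each library. EIF5 had 26, 24.4 and 5.9% in DMSO, 10.5, 14.3 and 10.9% with JQ1-VHL and 11.6, 10.1 and 4.3% with IBET151-VHL, and EIF4ENIF1 15, 17.3 and 4.51%, 3.71, 6.88 and 6.34% and 4.01, 3.41 and 1.23%. In both, DMSO replicate 3 lay within or below the range of JQ1-VHL.

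**Figure D4:**
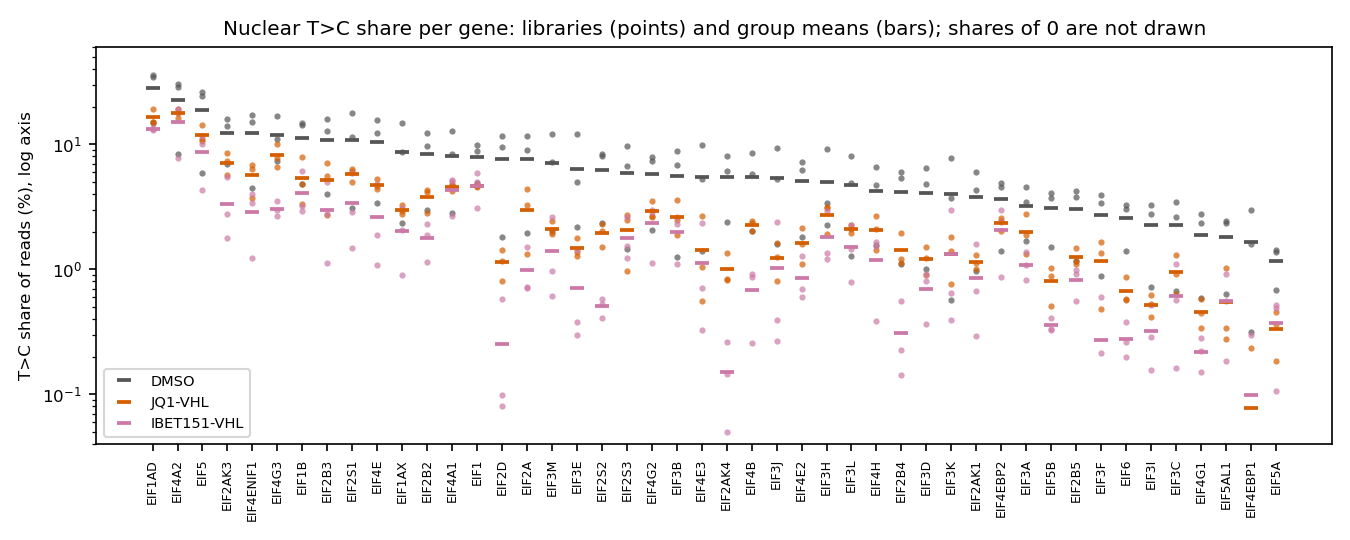
T>C share of nuclear reads (percent, log axis) in DMSO, JQ1-VHL and IBET151-VHL for initiation factor genes in order of their DMSO mean, with 1 point per library and a bar at each group mean; shares of 0 are not drawn. EIF1AD and EIF4A2 lead with DMSO means of 28.3% and 22.6%, and for most genes 1 low DMSO point lies among those of the VHL compounds.

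Each VHL compound was also set against the inhibitor it contains. The doses are not in the labels, so the comparison is not known to be at matched dose. These are 2 pairs of compounds in 2 fractions, with p-values adjusted over all genes within each. In all cytoplasmic reads 0 of 49 members passed for JQ1-VHL against JQ1, where 4.18% of all genes fell, 0.0481% rose and 3 members had an unadjusted p under 0.05. For IBET151-VHL against IBET151 2 of 49 fell, where 7.87% of all genes fell and 0.0321% rose. These were EIF5 (-0.86, SE 0.19, adjusted p = 0.00832) and EIF1AD (-1.17, SE 0.32, adjusted p = 0.0357). The EIF5 difference between JQ1-VHL and JQ1 was -0.58 (adjusted p = 0.0703) with a 95% interval of -0.94 to -0.23, and it passed with the replicate block (adjusted p = 0.0459) and with median-ratio scaling (-0.52, adjusted p = 0.0362). Against IBET151, EIF5 did not pass without IBET151 replicate 2 (-0.74, adjusted p = 0.150), and EIF1AD did not pass with any of its 5 libraries left out or with median-ratio scaling (-0.95, adjusted p = 0.0992). EIF4ENIF1 differed by -0.12 between JQ1-VHL and JQ1 (95% interval -0.58 to 0.34) and by -0.47 between IBET151-VHL and IBET151 (-0.98 to 0.05). In all nuclear reads 0 of 49 passed for either pair, where 0.166% and 0.506% of all genes fell, 0.132% and 0.0347% rose, and 0 and 1 members had an unadjusted p under 0.05.

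In T>C reads of the cytoplasm 24 of 39 members fell for JQ1-VHL against JQ1 (46.5% of all genes fell and 0.127% rose) and 29 of 39 for IBET151-VHL against IBET151 (69.1% and 0.0476%), at medians of -1.61 and -2.37 beside -1.39 and -2.25 over all genes. Median-ratio scaling left 1 lower for the first pair (2.71% of all genes lower), and 2 higher and 1 lower for the second (2.63% and 10.6%). EIF4EBP2, which holds back eIF4E, had 23.9, 34.1 and 23.6 with JQ1 and 0.67, 4.53 and 1.49 with JQ1-VHL, a difference of -3.29 (SE 0.58, adjusted p = 8.85e-05). It had 31.4 and 44.6 with IBET151 and 0, 4.32 and 1.19 with IBET151-VHL (-4.08, SE 0.65, adjusted p = 7.08e-06). All its VHL values lay under the filter minimum of 5 units. EIF4EBP2 thus entered the test through other groups, and the filter favoured a fall. Of the 39 tested members 23 had fewer than 2 VHL libraries at that minimum, so these cytoplasmic counts have the same limit. In the nucleus 45 of 49 fell for IBET151-VHL against IBET151 (81.4%, and 0.299% rose), and 1, EIF4EBP1, for JQ1-VHL against JQ1 (13.0%, and 0.332% rose). Median-ratio scaling gave 6 higher and 2 lower in the first pair (5.73% and 9.88% of all genes) and 1 higher in the second (1.38%). The count against IBET151 was 27 without IBET151 replicate 1. The count against JQ1 was 0 without JQ1 replicate 2 or JQ1-VHL replicate 1 and 5 without JQ1-VHL replicate 2, and it was 8 with the replicate block, though same-numbered libraries did not pair in these reads.

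Whether a drug acted differently in nucleus and cytoplasm was tested by the difference of the 2 effects. In all reads 0 of 49 members passed for either VHL compound, where 0.00692% and 0.0% of all genes passed with a higher nuclear effect and 0 members had an unadjusted p under 0.05. In T>C reads 6 of 49 passed for IBET151-VHL, 3 with a lower nuclear effect (23.7% of all genes) and 3 with a higher one (1.57%). For JQ1-VHL 1 had a lower effect (4.96%) and 1 a higher one (0.729%). EIF4A1 fell by 3.49 in the cytoplasm and its nuclear change was -1.15, a difference of 2.35 (SE 0.83, adjusted p = 0.029). With edgeR 0 members passed for either compound, and 19 of 12067 genes did for IBET151-VHL, against 3052 in limma. Cytoplasmic T>C values were low, and log2(value + 1) understates changes there, so a pass alone shows no difference between fractions.

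The other genes around initiation gave this background. In all cytoplasmic reads 0 of 11 tested elongation and termination factors passed with any drug, and of 16 partners of initiation PABPC4 rose with IBET151-VHL (0.58, adjusted p = 0.0285) and none passed with the other drugs. Of 12 tested genes of the integrated stress response, the programme started by the eIF2 alpha kinases, 6 fell with each VHL compound. The shares of all genes that fell in these reads are given above beside the counts of members. CHAC1, a glutathione-degrading enzyme, fell by 2.99 and 3.29, PPP1R15A, which helps remove the phosphate from eIF2 alpha, by 1.68 and 1.95, and TRIB3 by 1.13 and 1.25. TRIB3 also fell with JQ1 (-1.40) and IBET151 (-1.48), while SESN2 rose (0.95 and 1.12). Of 13 signalling genes DDIT4, an inhibitor of mTORC1, fell with both (-2.48 and -2.81), and MKNK2, a kinase of eIF4E, rose with JQ1 (0.98) and IBET151 (1.02). In cytoplasmic T>C reads 9 and 8 of 10 elongation and termination factors, 11 and 12 of 12 partners, 7 and 7 of 9 stress response genes and 6 and 6 of 8 signalling genes fell with JQ1-VHL and IBET151-VHL, beside 36 of 39 members with each. Of all genes tested in those reads 5214 and 5561 of 6300 fell.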

How the data were processed

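The authors deposited 1 table of all reads and 1 of T>C reads, each with gene by library values for 28 libraries. Per the submitters' processing notes, bcl2fastq, Trimmomatic 0.39, HISAT2, HTSeq and DESeq2 were used with the builds GRCh37/hg19 and dm3, with no order given; how T>C reads were called is not given in the sources used here. Per the labels' protocols, libraries were polyA 3′ end libraries read for 100 bases, with ERCC RNA added per mass of RNA. The deposited values are a signal, reads divided by a factor per library: 100% of values were whole multiples of 1 read within 0.001, and the reads recovered in this way served edgeR and DESeq2. No value column lay outside the series, and no 2 libraries held identical values.

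Values were tested as log2(value + 1) with limma 3.58.1 (R 4.3.3) with an intensity trend, over genes with at least 10 units (all reads) or 5 (T>C reads) in 2 libraries. Fold changes on this scale understate changes of low genes. Each fraction was fitted with its 14 libraries; DMSO fractions and the difference of nuclear and cytoplasmic effects used all 28. The p-values were adjusted by Benjamini and Hochberg over all genes, with a threshold of 0.05. All alternatives named in the closing section were run: pseudocount 5, no filter, median-ratio scaling, blocks, edgeR 4.0.16, DESeq2 1.42.0 and each library left out. T>C shares were taken where the mean was at least 100. Figures were drawn with matplotlib 3.10.9 in Python 3.11.15.

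Members, gene lists and tests were chosen with earlier results of these data known. By the rule for named genes, every member may be named, values per library are given for members that passed (at most 8 per comparison by smallest p) and for paralog groups and kinases, and at most 4 genes of each pathway list. EIF3H, the EIF5 and EIF1AD comparisons with the parents and other members given by library beyond these were chosen after their values were seen. Same-numbered libraries of DMSO, JQ1, JQ1-VHL and IBET151-VHL deviated together in all reads. Their lowest correlation of deviations was 0.203 in the cytoplasm and 0.159 in the nucleus. IBET151 libraries did not, and they stand in later runs of library numbers than same-numbered libraries of the other groups. In T>C reads only DMSO and JQ1 in the nucleus deviated together (0.234). On data simulated for JQ1-VHL against DMSO in the cytoplasm, limma recovered 3 of 67 genes at 1.5-fold, 41 of 67 at 2-fold and 64 of 66 at 4-fold among 12326 genes of all reads. Among 5469 genes of T>C reads it recovered 2 of 67, 12 of 67 and 61 of 66. It called 3 of 12126 and 4 of 5269 unchanged genes.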

Additional observations from a re-analysis of the deposited data

Results flagged for a closer look

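For 8 members the test of the nuclear minus the cytoplasmic effect in T>C reads passed in limma. Log2(value + 1) understates changes of low values, and cytoplasmic T>C values were low, so a pass alone shows no difference between fractions. For IBET151-VHL 19 of 12067 genes passed with edgeR on recovered reads, and 3052 in limma. With IBET151-VHL the difference of log2 changes was -3.54 for EIF2AK4, -3.66 for EIF2B4 and -3.87 for EIF2D, lower in the nucleus. It was 2.57 for EIF2S1, 2.35 for EIF4A1 and 2.31 for EIF4EBP2, higher in the nucleus. With JQ1-VHL it was -3.14 for EIF4EBP1 and 3.06 for EIF4H. EIF2B4, EIF2D and EIF4EBP1 were too low to test on their own in cytoplasmic T>C reads. All 8 lost the call with edgeR, and all but EIF2S1 and EIF4A1 lost it with median-ratio scaling.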

How the results depend on the processing

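The counts below are of members that passed, where they moved from those in the report, and the cause was not tested. Counts of all genes moved with the setting too, so these are no result about the members. For JQ1-VHL in nuclear T>C reads 7444 of 12059 genes passed in the main test and 10153 when blocking by runs. The same limit holds for counts in the report with a library left out. Of 1376 values for single members outside leaving out a library, 1054 kept direction and side of the threshold, 240 no longer passed and 82 changed sign. Of 1068 with a library left out, 885 kept both and 183 no longer passed. T>C calls with IBET151-VHL against DMSO numbered 34 to 36 in the cytoplasm with each library left out, and 14 with median-ratio scaling, 4 of them higher. Depth limits T>C reads of the cytoplasm, where 23 of 39 tested members lacked 2 VHL libraries at the minimum.

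With DESeq2 the count in all reads was 2 for IBET151-VHL in the nucleus, 1 for JQ1 in the cytoplasm and 1 for JQ1-VHL against JQ1 in the cytoplasm. With DESeq2 the count in T>C reads was 0 for IBET151 in the cytoplasm, 2 for JQ1-VHL against JQ1 in the nucleus and 2 for the difference between fractions for IBET151-VHL. With edgeR the count in T>C reads was 0 for IBET151 in the cytoplasm, 0 for JQ1-VHL against JQ1 in the nucleus, 0 for the difference between fractions for IBET151-VHL and 0 for the difference between fractions for JQ1-VHL. With no filter the count in T>C reads was 1 for IBET151 in the cytoplasm. With a pseudocount of 5 the count in T>C reads was 4 for IBET151 in the cytoplasm, 13 for JQ1 in the cytoplasm, 1 for JQ1 in the nucleus, 3 for JQ1-VHL against JQ1 in the nucleus and 14 for the difference between fractions for IBET151-VHL. Blocking by runs of library numbers the count in all reads was 14 for IBET151 in the nucleus, 7 for IBET151-VHL in the cytoplasm, 35 for IBET151-VHL in the nucleus, 7 for IBET151-VHL against IBET151 in the nucleus, 1 for JQ1 in the cytoplasm, 16 for JQ1 in the nucleus, 6 for JQ1-VHL in the cytoplasm, 19 for JQ1-VHL in the nucleus, 1 for JQ1-VHL against JQ1 in the cytoplasm and 3 for JQ1-VHL against JQ1 in the nucleus. Blocking by runs of library numbers the count in T>C reads was 2 for IBET151 in the nucleus, 6 for JQ1 in the nucleus, 47 for JQ1-VHL in the nucleus, 35 for JQ1-VHL against JQ1 in the nucleus, 13 for the difference between fractions for IBET151-VHL and 7 for the difference between fractions for JQ1-VHL.

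The replicate number pairs libraries in all reads as described, apart from those of IBET151, and elsewhere the libraries share only a number. IBET151 libraries stand in later runs than same-numbered others, so with them the block joins libraries of different runs. No other count of members moved by over 1.5 times with the block. With the replicate block the count in all reads was 1 for IBET151 in the cytoplasm, 5 for IBET151 in the nucleus, 21 for IBET151-VHL in the nucleus, 42 for IBET151-VHL against IBET151 in the nucleus, 1 for JQ1 in the cytoplasm, 3 for JQ1 in the nucleus, 9 for JQ1-VHL in the nucleus and 1 for JQ1-VHL against JQ1 in the cytoplasm. With the replicate block the count in T>C reads was 1 for IBET151 in the cytoplasm, 1 for JQ1 in the nucleus, 8 for JQ1-VHL against JQ1 in the nucleus and 6 for the difference between fractions for JQ1-VHL.

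With median-ratio scaling the count in all reads was 2 for IBET151 in the cytoplasm, 11 for IBET151-VHL in the cytoplasm with 8 higher, 3 for IBET151-VHL in the nucleus, 1 for IBET151-VHL against IBET151 in the cytoplasm, 2 for JQ1 in the cytoplasm, 5 for JQ1-VHL in the cytoplasm with 4 higher, 1 for JQ1-VHL in the nucleus, 1 for JQ1-VHL against JQ1 in the cytoplasm and 38 for DMSO fractions with 5 higher. With median-ratio scaling the count in T>C reads was 0 for IBET151 in the cytoplasm, 14 for IBET151-VHL in the cytoplasm, 18 for IBET151-VHL in the nucleus with 13 higher, 3 for IBET151-VHL against IBET151 in the cytoplasm with 2 higher, 8 for IBET151-VHL against IBET151 in the nucleus with 6 higher, 0 for JQ1 in the cytoplasm, 7 for JQ1-VHL in the cytoplasm, 7 for JQ1-VHL in the nucleus with 7 higher, 1 for JQ1-VHL against JQ1 in the cytoplasm, 1 for JQ1-VHL against JQ1 in the nucleus with 1 higher, 1 for the difference between fractions for JQ1-VHL and 10 for DMSO fractions. With median-ratio scaling and the replicate block, chosen after seeing the data, the count in all reads was 10 for IBET151 in the cytoplasm, 5 for IBET151 in the nucleus, 19 for IBET151-VHL in the cytoplasm with 16 higher, 6 for IBET151-VHL in the nucleus, 3 for IBET151-VHL against IBET151 in the nucleus, 5 for JQ1 in the cytoplasm, 1 for JQ1 in the nucleus, 13 for JQ1-VHL in the cytoplasm with 11 higher, 3 for JQ1-VHL in the nucleus, 1 for JQ1-VHL against JQ1 in the cytoplasm, 3 for JQ1-VHL against JQ1 in the nucleus and 39 for DMSO fractions with 5 higher. With median-ratio scaling and the replicate block, chosen after seeing the data, the count in T>C reads was 0 for IBET151 in the cytoplasm, 13 for IBET151-VHL in the cytoplasm, 20 for IBET151-VHL in the nucleus with 15 higher, 4 for IBET151-VHL against IBET151 in the cytoplasm, 13 for IBET151-VHL against IBET151 in the nucleus with 9 higher, 0 for JQ1 in the cytoplasm, 7 for JQ1-VHL in the cytoplasm, 11 for JQ1-VHL in the nucleus with 11 higher, 2 for JQ1-VHL against JQ1 in the cytoplasm, 6 for JQ1-VHL against JQ1 in the nucleus with 6 higher, 2 for the difference between fractions for IBET151-VHL, 0 for the difference between fractions for JQ1-VHL and 8 for DMSO fractions. With median-ratio scaling, with and without the block, these log2 changes of T>C reads, called as falls in the report, turned positive. With IBET151-VHL in the cytoplasm they were EIF1 1.09, EIF2AK3 0.26, EIF2B2 0.21, EIF2B5 1.16, EIF3B 1.15, EIF3I 0.33, EIF4A2 1.37 and EIF4G3 0.14. With JQ1-VHL in the cytoplasm they were EIF1 0.29, EIF2B3 0.28, EIF2B5 0.47, EIF4A2 0.86 and EIF4G3 0.26. With IBET151-VHL in the nucleus they were EIF1AD 0.36, EIF1AX 1.13, EIF1B 0.41, EIF2AK1 0.43, EIF2AK2 0.33, EIF2B2 0.24, EIF2B5 0.68, EIF2S1 0.95, EIF2S3 1.05, EIF3A 1.18, EIF3B 1.36, EIF3C 0.69, EIF3D 0.27, EIF3H 1.33, EIF3K 0.89, EIF3L 1.31, EIF4E 0.14, EIF4G2 1.18, EIF4G3 0.59, EIF4H 0.76, EIF5 1.28, EIF5A 0.57 and EIF5AL1 0.54. With JQ1-VHL in the nucleus they were EIF1B 0.035, EIF2AK1 0.061, EIF2AK3 0.12, EIF2S3 0.22 and EIF3D 0.081.

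With each library left out in turn the count in all reads ran from 0 to 7 for IBET151 in the cytoplasm, 3 to 6 for IBET151-VHL in the cytoplasm, 0 to 1 for IBET151-VHL in the nucleus, 0 to 2 for IBET151-VHL against IBET151 in the cytoplasm, 0 to 3 for JQ1-VHL in the cytoplasm and 5 to 9 for DMSO fractions. With each library left out in turn the count in T>C reads ran from 1 to 2 for IBET151 in the cytoplasm, 27 to 44 for IBET151-VHL against IBET151 in the nucleus, 1 to 4 for JQ1 in the cytoplasm, 0 to 1 for JQ1 in the nucleus, 3 to 28 for JQ1-VHL in the nucleus, 0 to 5 for JQ1-VHL against JQ1 in the nucleus and 0 to 9 for the difference between fractions for JQ1-VHL. Without cytoplasmic DMSO replicate 2, 6 passed in all reads for IBET151-VHL (4 higher, 2 lower) and 2 for JQ1-VHL (2 higher).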
